A study of Homo sapiens with 6 samples.

Results

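The 50 genes described here encode the protein folding and quality control machinery of the endoplasmic reticulum (ER) and the sensors that watch over it. They were chosen by symbol for their known roles, with earlier results of these data known. The role groups are chaperones of the HSP70 cycle, the lectin chaperone cycle, disulfide and proline isomerases, ER-associated degradation (ERAD), the translocon, and sensors with their transcription factors. Of these 50 genes, 49 were found among the 12982 genes of the deposited table, and DERL3 was not analysed here. RNA-seq was performed on SW480, a long-used line from a human colorectal adenocarcinoma, here labelled as wild type, whose cells were exposed for 24 h to the solvent DMSO (3 libraries) or to MPM-1 (3 libraries), a mitochondrial probe molecule called WT4 in the labels. The dose of MPM-1 used for these libraries is not given in the sources used here, and nothing states that the 3 libraries of a treatment came from separate cultures, so the p-values measure the spread between these libraries, which may be technical. The question asked of these data is how the transcripts of the ER machinery differed between MPM-1 and DMSO.

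Proteins that enter the secretory pathway are threaded through the translocon into the ER, where HSP70 and lectin chaperones fold them, disulfide isomerases arrange their cysteine bonds, and ERAD returns those that fail to fold to the cytosol for degradation. When unfolded proteins accumulate, 3 membrane sensors, PERK, IRE1 and ATF6, switch on the unfolded protein response. IRE1, encoded by ERN1, removes a short intron from XBP1 mRNA, and ATF6 is cut by Golgi proteases, so that each yields a transcription factor that acts on chaperone and ERAD genes. Counts per gene do not separate the spliced from the unspliced form of XBP1 and hold no measure of the cleavage of ATF6.

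ATF6 and XBP1 are known to act through short promoter elements. These are shown for 6 of the genes that carry such an element, picked because their values differed widely. An exact match was sought on both strands for ERSE (CCAAT, any 9 bases, CCACG), ERSE-II (ATTGG, any 1 base, CCACG) and UPRE (TGACGTGG). The amino acid response element AARE (TTGCATCA), which is not counted here among the elements of ATF6 and XBP1, was sought as well. The windows were 300 bases around the transcription start, taken from RefSeq on GRCh38.p14. Of the 50 genes, 47 matched an entry, and PDIA3, DERL1 and DERL3 did not. In the sequences, which run 5′ to 3′ on the strand of the gene, capitals mark the fixed bases of the elements. HSPA5 lies at chr9:125241294-125241593 (minus strand), HSP90B1 at chr12:103930160-103930459 (plus), CALR at chr19:12938359-12938658 (plus), CRELD2 at chr22:49918384-49918683 (plus), XBP1 at chr22:28800520-28800819 (minus) and HERPUD1 at chr16:56931892-56932191 (plus).
HSPA5: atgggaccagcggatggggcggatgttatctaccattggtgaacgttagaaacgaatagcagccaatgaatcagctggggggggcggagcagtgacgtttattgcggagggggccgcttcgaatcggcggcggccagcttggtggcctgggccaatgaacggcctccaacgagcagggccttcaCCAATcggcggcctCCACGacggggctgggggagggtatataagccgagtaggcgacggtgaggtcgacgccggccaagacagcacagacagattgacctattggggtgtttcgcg
HSP90B1: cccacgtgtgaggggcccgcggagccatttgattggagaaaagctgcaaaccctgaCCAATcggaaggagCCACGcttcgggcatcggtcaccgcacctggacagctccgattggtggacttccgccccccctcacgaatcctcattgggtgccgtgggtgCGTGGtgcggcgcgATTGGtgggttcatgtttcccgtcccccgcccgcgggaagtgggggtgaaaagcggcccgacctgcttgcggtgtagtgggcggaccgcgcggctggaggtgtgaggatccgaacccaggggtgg
CALR: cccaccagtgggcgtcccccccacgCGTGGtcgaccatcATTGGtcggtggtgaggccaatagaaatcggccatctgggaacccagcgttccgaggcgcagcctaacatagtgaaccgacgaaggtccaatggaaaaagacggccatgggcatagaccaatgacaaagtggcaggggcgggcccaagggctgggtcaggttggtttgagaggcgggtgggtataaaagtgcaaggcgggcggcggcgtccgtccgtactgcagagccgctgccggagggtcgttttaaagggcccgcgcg
CRELD2: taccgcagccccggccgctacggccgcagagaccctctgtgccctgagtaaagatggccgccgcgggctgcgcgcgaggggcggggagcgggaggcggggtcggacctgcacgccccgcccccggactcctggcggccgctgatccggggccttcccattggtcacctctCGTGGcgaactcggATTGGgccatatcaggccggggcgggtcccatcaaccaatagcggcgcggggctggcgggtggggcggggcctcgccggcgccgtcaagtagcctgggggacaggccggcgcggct
XBP1: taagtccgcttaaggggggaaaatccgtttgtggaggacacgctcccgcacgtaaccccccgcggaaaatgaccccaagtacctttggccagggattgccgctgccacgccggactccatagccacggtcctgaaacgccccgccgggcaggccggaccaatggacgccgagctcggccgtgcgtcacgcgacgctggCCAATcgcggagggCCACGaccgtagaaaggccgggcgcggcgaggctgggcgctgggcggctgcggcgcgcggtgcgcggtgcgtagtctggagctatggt
HERPUD1: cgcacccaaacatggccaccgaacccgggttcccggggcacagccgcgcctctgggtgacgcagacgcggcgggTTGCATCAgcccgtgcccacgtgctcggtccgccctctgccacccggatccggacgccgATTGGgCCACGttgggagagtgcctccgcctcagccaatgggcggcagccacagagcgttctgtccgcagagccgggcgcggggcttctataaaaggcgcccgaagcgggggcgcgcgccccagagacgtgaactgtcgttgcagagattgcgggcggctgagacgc
The first 5 promoters hold ERSE, which occurs at 2 places in HSP90B1, and HERPUD1 holds ERSE-II and AARE. ERSE was found in 7 of 47 promoters (14.9%), against 22 of all 27305 promoters (0.0806%), the other 2 being those of CANX and ERO1B. The log2 fold changes of these 7 genes ran from -0.60 for CRELD2 to 2.33 for HSPA5, with a median of 0.53, against 0.68 for the 40 genes without a match. ERSE-II was found in HYOU1, SDF2L1 and HERPUD1 (6.38%, against 0.0549% of all promoters), whose log2 fold changes were 1.52, 0.33 and 2.17. UPRE was found in HYOU1, DNAJC10 and SEC62 (6.38%, against 0.795%), where the match in HYOU1 overlaps ERSE-II, and AARE in HERPUD1 alone among these genes (2.13%, against 0.923%). Genes and elements were both picked for known roles, so these shares beside all promoters are a description and not a test. A match describes the letters of a window and is not a measured binding site, and the lack of one says only that these letters are not in this window.

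Most of the ER machinery was higher with MPM-1. At an adjusted p under 0.05 in edgeR's quasi-likelihood test, with adjustment over all 12982 genes, 40 of the 49 genes rose, 1 fell and 8 did not pass, whereas among all genes 27.7% rose, 28.8% fell and 56.5% passed in either direction. A call further required an adjusted p under 0.01 together with a change of 1 or more in size on the log2 scale. By this rule 13 of the 49 genes (26.5%) were higher and 0 lower, against 5.58% of all genes higher, 8.75% lower and 14.3% in either direction. DESeq2 called 15 of the 49 genes higher and 0 lower, against 779 higher and 1170 lower among all 12982 genes. Among those without a call, the single gene that fell was CRELD2. The groups did not overlap for 41 of the 49 genes (83.7%), against 64.3% of all genes. The median log2 fold change of the 49 genes was 0.59, with a range of -0.60 to 2.63, against -0.03 for all genes. Because the genes were chosen with earlier results of these data known, their shares beside all genes are a description and not a test. In RNA from whole cultures, fewer cells of a type and less RNA per cell cannot be told apart.

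**Figure D1:**
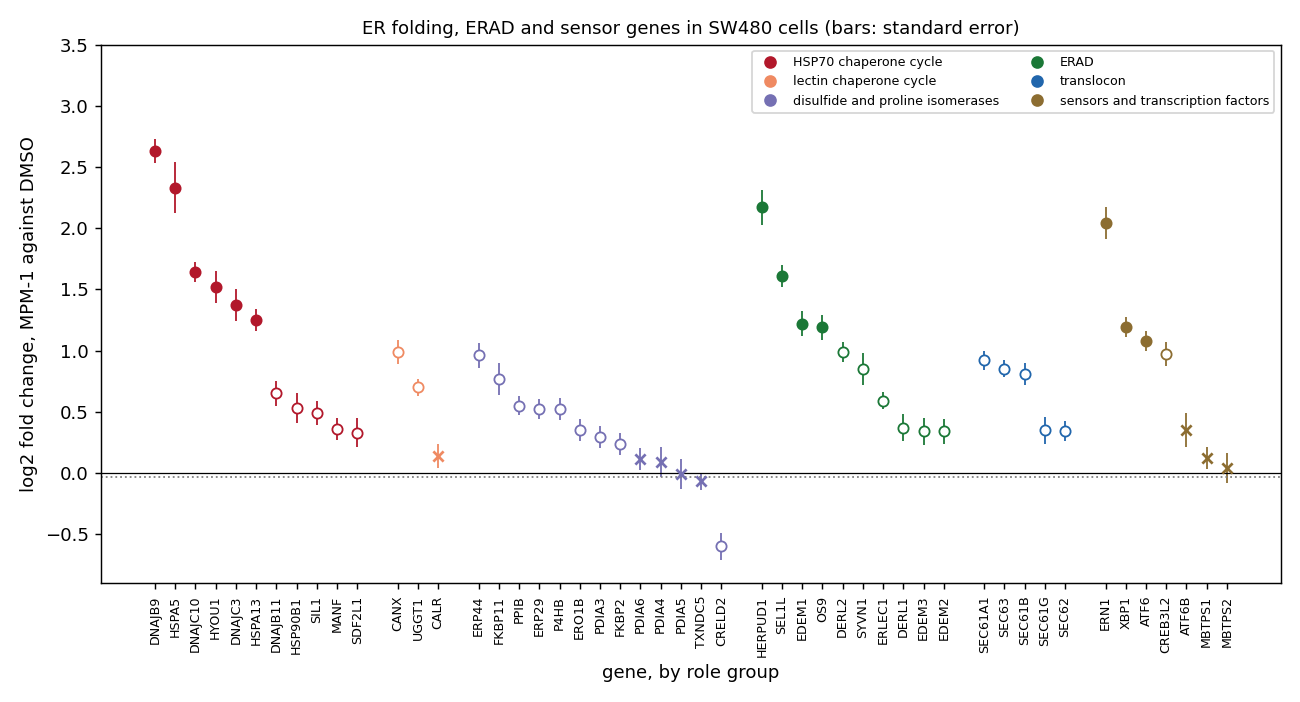
Log2 fold change (vertical axis, MPM-1 against DMSO, scaled counts, 3 libraries each) of the 49 genes by role group, with bars for the standard error. Filled circles are called genes (adjusted p under 0.01, change of 1 or more in size), open circles an adjusted p under 0.05 only, and crosses did not pass; the dotted line is the median of all genes (-0.03). All 11 genes of the HSP70 cycle, all 10 of ERAD and all 5 of the translocon lie above 0, and CRELD2 is the one gene that fell.

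The libraries held 32095456 to 40269820 counts with DMSO and 31733667 to 35403841 with MPM-1, and the smallest mean count of any of the 49 genes was 703. All 8 colorectal epithelial markers were in the table, with a summed level of 4820 to 5550 FPKM (fragments scaled by gene length and library total) with DMSO and 6740 to 7200 FPKM with MPM-1, and EPCAM stood between 347 and 424 FPKM in all libraries and did not pass (log2 fold change 0.00, adjusted p = 0.995). The other 7 moved both ways, since KRT8, KRT18, KRT19 and CDH1 rose by 0.42 to 0.89 on the log2 scale, while VIL1, CDX1 and CDX2 had log2 fold changes of -0.88, -0.98 and -2.20 and fell. Of 6 markers of other cell types, PTPRC, COL3A1, PECAM1 and ALB were not among the genes of the table, COL1A1 reached at most 0.51 FPKM, and CD68 ranged from 31.5 to 73.6 FPKM, so that their summed level was 32 to 46.3 FPKM with DMSO and 68.6 to 73.7 FPKM with MPM-1. By the edgeR test, CD68 rose (log2 fold change 1.08, adjusted p = 0.000165) and COL1A1 fell (-2.07, adjusted p = 0.00536). The part of the epithelial and other markers in the results was not tested. MPM-1 replicate 2 was the lowest of the MPM-1 libraries for 31 of the 49 genes, and DMSO replicate 1 the highest of the DMSO libraries for 35. Such counts were not taken over all genes, so whether they are particular to these genes was not tested. The scaling also mattered: without scaling beyond the library total, the median of all genes was -0.18 rather than -0.03, the share of higher among all calls was 26.8% rather than 39.0%, and 30 of the 40 genes that rose still passed. The other 10 were SDF2L1, MANF, PDIA3, ERO1B, FKBP2, DERL1, EDEM2, EDEM3, SEC61G and SEC62, all with main log2 fold changes of 0.37 or less.

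All 11 genes of the HSP70 chaperone cycle group, which also holds HSP90B1, MANF and SDF2L1, rose, with a median log2 fold change of 1.25. Of these, 6 were called (54.5%, against 5.58% of all genes called higher). HSPA5, also known as BiP, is the abundant HSP70 of the ER lumen and lies at chromosome 9, 125234853 to 125241330 (GRCh38, minus strand). Its level was 1620, 1180 and 1190 CPM (counts scaled to the library total and by TMM) in the DMSO libraries and 8740, 4790 and 6480 CPM in the MPM-1 libraries. All 3 MPM-1 libraries lay far above the DMSO libraries, and replicate 1 was the highest of each treatment. The log2 fold change was 2.33 ± 0.21 (SE, 5.02-fold, adjusted p = 1.74e-05). HSP90B1, or GRP94, the HSP90 of the ER, had 1740, 1360 and 1360 CPM with DMSO and 2360, 1870 and 2210 CPM with MPM-1. These groups did not overlap either, though they lay closer, and the rise was 0.53 ± 0.12 (1.44-fold, adjusted p = 0.00352).

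The HSP70 co-chaperones that carry a J domain rose by 0.65 to 2.63 on the log2 scale. DNAJB9, or ERdj4, which keeps IRE1 bound to HSPA5, had the largest fold change of all 49 genes: 23.6, 20.4 and 20.4 CPM with DMSO and 128, 123 and 147 CPM with MPM-1 (log2 fold change 2.63 ± 0.10, 6.20-fold, adjusted p = 2.44e-07). DNAJB9 overlaps PNPLA8 and THAP5 on the opposite strand, as 18 of the 49 genes overlap another gene of the table, and whether the counting used strand is not given in the sources used here. DNAJC10, or ERdj5, a reductase that helps unfold ERAD substrates, stood at 79.2, 84.8 and 91.5 CPM with DMSO and at 251, 271 and 275 CPM with MPM-1 (1.64 ± 0.08, adjusted p = 7.22e-07). Both genes were at a similar level in the libraries of a treatment, and the treatments were far apart. DNAJC3, or p58IPK, had 72.0, 64.3 and 59.0 CPM with DMSO and 184, 136 and 185 CPM with MPM-1, so that its lowest MPM-1 library, replicate 2, was still well above the DMSO libraries (1.37 ± 0.13, adjusted p = 2.33e-05). DNAJB11, or ERdj3, which hands unfolded clients to HSPA5, rose less, by 0.65 on the log2 scale (adjusted p = 0.000492), and overlaps TBCCD1 on the opposite strand.

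HYOU1, a large HSP70 relative that exchanges nucleotide on HSPA5, had 175, 162 and 154 CPM with DMSO and 565, 389 and 451 CPM with MPM-1 (log2 fold change 1.52 ± 0.13, adjusted p = 1.31e-05). HSPA13, a lesser known HSP70 family member of microsomes, had 63.1, 53.8 and 53.5 CPM with DMSO and 130, 146 and 129 CPM with MPM-1 (1.25 ± 0.09, adjusted p = 6.39e-06). The treatments did not overlap for either gene. SIL1, the other exchange factor of HSPA5, rose by only 0.49 (adjusted p = 0.00185). MANF, an ER protein that binds HSPA5, rose by 0.36 (adjusted p = 0.00945). SDF2L1, a partner of DNAJB11, had the smallest rise of this group, from 111, 93.8 and 101 CPM to 141, 106 and 137 CPM, where MPM-1 replicate 2 lay below DMSO replicate 1 (0.33, adjusted p = 0.0351). SDF2L1 no longer passed when any one of 4 libraries was left out, namely DMSO replicate 2 or 3 (adjusted p = 0.127 and 0.0839) or MPM-1 replicate 1 or 3 (adjusted p = 0.0967 and 0.110).

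**Figure D2:**
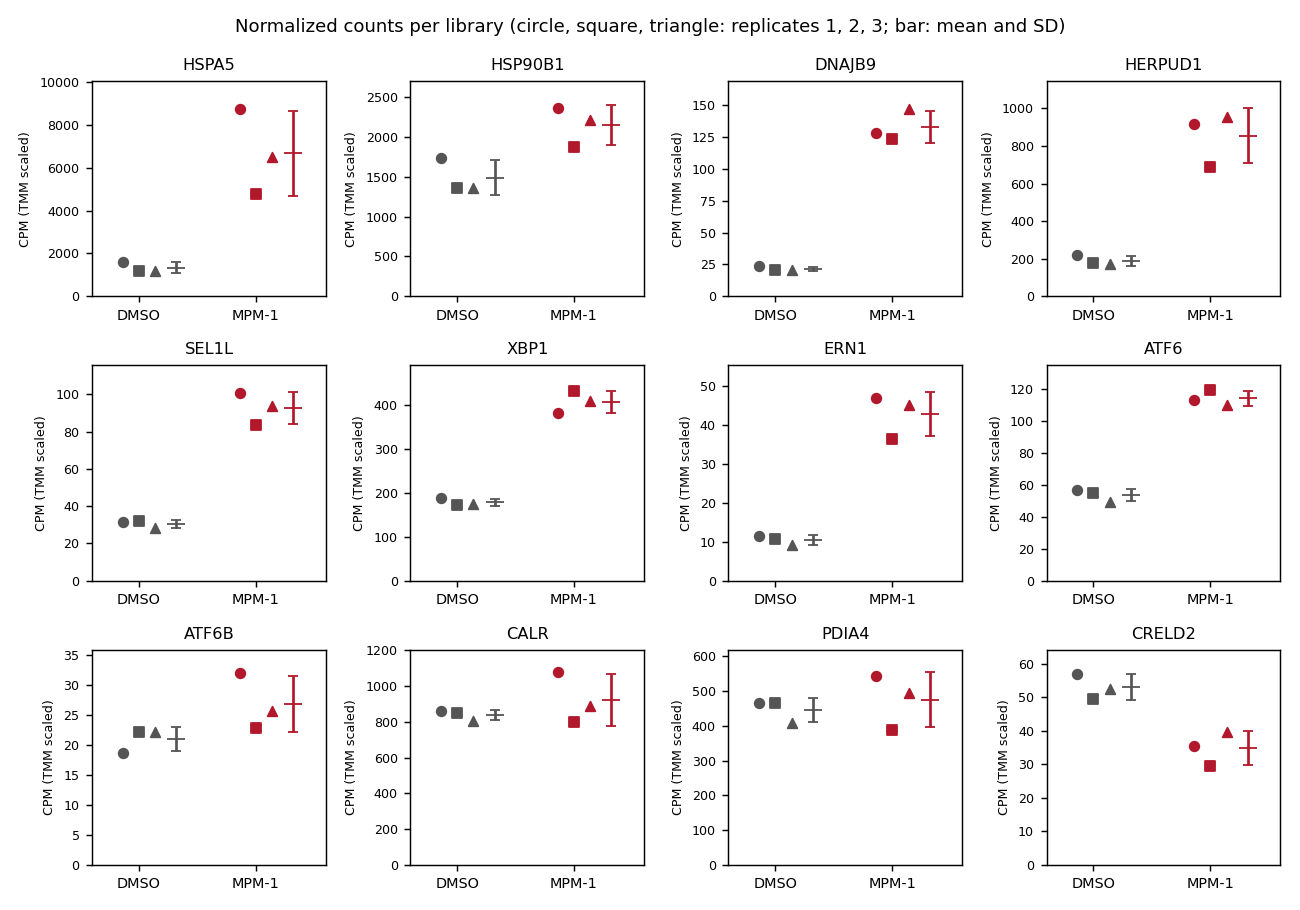
Scaled counts (vertical axes, CPM, from 0) of 12 genes in each library, DMSO in grey and MPM-1 in red, with circle, square and triangle for replicates 1, 2 and 3 and a bar for the mean and SD. HSPA5 spans 1180 to 1620 CPM with DMSO and 4790 to 8740 CPM with MPM-1, the treatments of CALR, PDIA4 and ATF6B lie close together or overlap, and CRELD2 is lower in every MPM-1 library.

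In the lectin chaperone cycle, which holds glycoproteins through their sugar chains, 2 of the 3 genes rose, with a median log2 fold change of 0.70. CANX, the membrane-bound lectin calnexin, had 558, 564 and 525 CPM with DMSO and 1230, 944 and 1100 CPM with MPM-1, with no overlap (log2 fold change 0.99 ± 0.10, adjusted p = 2.91e-05), just below the fold needed for a call. CALR, its soluble relative calreticulin, had 859, 849 and 805 CPM with DMSO and 1080, 797 and 891 CPM with MPM-1. MPM-1 replicate 2 was the lowest library of all for CALR, and the log2 fold change of 0.14 did not pass (adjusted p = 0.278). Without MPM-1 replicate 2 it was 0.26 and passed (adjusted p = 0.0450). UGGT1, which adds glucose back to misfolded glycoproteins so that the lectins rebind them, rose from 39.2 ± 0.111 CPM to 63.8 ± 1.20 CPM (mean ± SD, n = 3 each; edgeR log2 fold change 0.70, adjusted p = 3.69e-05).

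The disulfide and proline isomerases had the smallest median of the 6 role groups. Of 13 genes, 8 rose, 1 fell, 4 did not pass and 0 were called, with 9 that did not overlap between treatments (69.2%, near the 64.3% of all genes), and their median log2 fold change was 0.29. Among the protein disulfide isomerases, P4HB, the archetype of the family, rose by 0.52 (adjusted p = 0.00105), and PDIA3, which works with the lectin chaperones on glycoproteins, by 0.29 (adjusted p = 0.0196). PDIA3 overlaps ELL3 on the opposite strand and no longer passed without DMSO replicate 3 (adjusted p = 0.0793), nor without MPM-1 replicate 1 or 3 (adjusted p = 0.0546 and 0.0632). PDIA4, PDIA5, PDIA6 and TXNDC5, further thioredoxin-fold members of the family, had log2 fold changes of 0.09, -0.01, 0.11 and -0.07, and none passed (adjusted p = 0.550, 0.965, 0.308 and 0.379). PDIA4 is an example, with 467, 467 and 407 CPM in DMSO and 544, 388 and 494 CPM in MPM-1, where the lowest library of all was an MPM-1 library. Without MPM-1 replicate 2, PDIA6 was at 0.22 and passed (adjusted p = 0.0402). TXNDC5 passed as lower when counts were scaled by the library total alone (log2 fold change -0.22, adjusted p = 0.0141).

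ERP44, which retrieves unassembled secretory proteins through thiol bonds, had the largest rise of the isomerase group, from 77.0, 68.6 and 62.6 CPM to 151, 122 and 133 CPM (log2 fold change 0.96 ± 0.10, adjusted p = 5.55e-05). Its lowest MPM-1 library was well above its highest DMSO library. ERP29, a chaperone with an inactive thioredoxin fold, rose by 0.52 (adjusted p = 0.000445), and the oxidase ERO1B, which feeds oxidising power to the isomerases, by 0.35 (adjusted p = 0.00992). CRELD2, an ER protein with disulfide isomerase activity that is usually counted among unfolded protein response genes, was the exception. It had 57.0, 49.4 and 52.5 CPM with DMSO and 35.5, 29.5 and 39.5 CPM with MPM-1. The highest MPM-1 library stayed under the lowest DMSO library, and CRELD2 fell by 0.60 ± 0.11 on the log2 scale (adjusted p = 0.00154). CRELD2 overlaps ALG12 on the opposite strand.

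The proline isomerases, which turn peptide bonds before proline, rose modestly. PPIB, or cyclophilin B, had 821, 696 and 758 CPM with DMSO and 1130, 1080 and 1130 CPM with MPM-1, with no overlap (log2 fold change 0.55, adjusted p = 0.000223), and it overlaps SNX22 on the opposite strand. FKBP11 rose by 0.77 (adjusted p = 0.000654) and FKBP2 by 0.24 (adjusted p = 0.0431). FKBP2 did not pass without DMSO replicate 2 or 3 (adjusted p = 0.167 and 0.111), without MPM-1 replicate 3 (adjusted p = 0.114), nor with a replicate block (adjusted p = 0.0504).

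All 10 measured ERAD genes rose (against 27.7% of all genes), with a median log2 fold change of 0.92. In all 10 the treatments did not overlap, against 64.3% of all genes. Called were 4 of them (40%, against 5.58% of all genes called higher). HERPUD1, a ubiquitin-like membrane protein that assembles the HRD1 ligase complex, lies at chromosome 16, 56932048 to 56944863 (GRCh38, plus strand). It had 221, 177 and 172 CPM with DMSO and 919, 686 and 956 CPM with MPM-1, so that the lowest MPM-1 library was far above every DMSO library (log2 fold change 2.17 ± 0.14, 4.49-fold, adjusted p = 3.25e-06). SEL1L, the adaptor that stabilises HRD1, had 31.4, 31.9 and 28.2 CPM with DMSO and 101, 83.7 and 93.7 CPM with MPM-1 (1.61 ± 0.09, adjusted p = 1.90e-06). SYVN1, which encodes the HRD1 ligase itself, rose by less, 0.85 on the log2 scale (adjusted p = 0.000483), and overlaps FAU on the same strand and MRPL49 on the other.

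The lectins and mannosidases that pick out glycoproteins for degradation rose by 0.34 to 1.22 on the log2 scale. EDEM1, which trims mannose from misfolded glycoproteins, had 53.9, 66.0 and 56.1 CPM with DMSO and 144, 126 and 140 CPM with MPM-1 (log2 fold change 1.22 ± 0.10, adjusted p = 9.59e-06). Its relatives EDEM2 and EDEM3 each rose by 0.34 (adjusted p = 0.0124 and 0.0258). EDEM2 no longer passed without DMSO replicate 2 (adjusted p = 0.0508), nor EDEM3 without DMSO replicate 3 or MPM-1 replicate 2 (adjusted p = 0.0918 and 0.0644). OS9, a lectin that delivers the trimmed proteins to SEL1L, had 84.6, 78.0 and 73.6 CPM with DMSO and 201, 162 and 177 CPM with MPM-1 (1.19 ± 0.10, adjusted p = 1.11e-05; 0.98 and so not called in limma on log2(FPKM + 1)), and its partner lectin ERLEC1 rose by 0.59 (adjusted p = 0.000106). Of the derlins, which form the path out of the membrane, DERL2 rose by 0.99 (adjusted p = 1.09e-05) and DERL1 by 0.37 (adjusted p = 0.0148). DERL1 did not pass without DMSO replicate 2 or 3 (adjusted p = 0.0604 and 0.0608) or without MPM-1 replicate 3 (adjusted p = 0.0508), and overlaps TBC1D31 on the opposite strand.

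All 5 translocon genes rose without overlap, where 64.3% of all genes did not overlap. None reached the fold of a call, and the median log2 fold change was 0.81. SEC61A1, the channel subunit, had 228, 212 and 208 CPM with DMSO and 439, 391 and 396 CPM with MPM-1 (0.92, adjusted p = 1.35e-05). SEC61B, a small channel subunit and the most abundant of the group by FPKM, had 156, 126 and 139 CPM with DMSO and 253, 242 and 243 CPM with MPM-1 (0.81, adjusted p = 5.98e-05). For both, each treatment was tight and the treatments were apart, and SEC61A1 overlaps MGLL and RUVBL1 on the opposite strand. SEC61G, the remaining channel subunit, rose by 0.35 (adjusted p = 0.0196), and no longer passed without DMSO replicate 2 or 3 (adjusted p = 0.0751 and 0.0565) or without MPM-1 replicate 3 (adjusted p = 0.0517). SEC63, which recruits HSPA5 to the channel, rose by 0.85 (adjusted p = 1.16e-05), and its partner SEC62, also a receptor for the autophagy of ER, by 0.34 (adjusted p = 0.00517).

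Of the 7 sensors and transcription factors, 4 rose and 3 did not pass, with a median log2 fold change of 0.97. Called were 3 (42.9%, against 5.58% of all genes called higher). ERN1, which encodes IRE1 (chromosome 17, 64039142 to 64130819, GRCh38, minus strand), had 11.6, 10.6 and 9.16 CPM with DMSO and 46.9, 36.5 and 45.2 CPM with MPM-1. The treatments were far apart, and the log2 fold change was 2.04 ± 0.13 (4.10-fold, adjusted p = 3.06e-06). XBP1, the target of IRE1 (chromosome 22, 28794555 to 28800597, GRCh38, minus strand), had 188, 172 and 175 CPM with DMSO and 382, 432 and 408 CPM with MPM-1 (1.19 ± 0.08, 2.29-fold, adjusted p = 3.01e-06). MPM-1 replicate 2 was the lowest MPM-1 library for 9 of the 13 called genes, but the highest for XBP1, HSPA13 and ATF6.

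ATF6 passed the test and its relative ATF6B did not. Their ratio, given further on, did not overlap between treatments. The exact test of that ratio with 3 libraries a treatment cannot give a p below 0.10, so it cannot decide whether the 2 genes differed. ATF6 (chromosome 1, 161766294 to 161964070, GRCh38, plus strand) had 56.7, 54.9 and 49.3 CPM with DMSO and 113, 119 and 110 CPM with MPM-1 (log2 fold change 1.08 ± 0.08, adjusted p = 6.76e-06). Its call was lost in 4 of 14 alternatives, where its log2 fold change was under 1, at 0.93 with scaling by the library total alone and at 0.85 to 0.92 in limma on FPKM, though it still passed an adjusted p under 0.05. ATF6B, described as the weaker activator of the pair, had 18.6, 22.1 and 22.1 CPM with DMSO and 31.9, 22.7 and 25.6 CPM with MPM-1. Its lowest MPM-1 library was barely above its highest DMSO libraries, and the value of 0.35 ± 0.14 did not pass (adjusted p = 0.0534). Without MPM-1 replicate 2 it was 0.48 and passed (adjusted p = 0.0154), and it passed in DESeq2 as well (0.37, adjusted p = 0.0289). ATF6B overlaps TNXB on the same strand. MBTPS1 and MBTPS2, the Golgi proteases that release the active part of ATF6, had log2 fold changes of 0.12 and 0.04 and did not pass (adjusted p = 0.259 and 0.782). MBTPS2 overlapped between treatments, with 17.1, 20.8 and 21.0 CPM in DMSO and 20.0, 21.0 and 19.8 CPM in MPM-1. CREB3L2, a membrane-bound transcription factor of the same build as ATF6, rose from 34.0, 34.0 and 31.6 CPM to 70.8, 56.1 and 68.5 CPM (0.97 ± 0.10, adjusted p = 4.47e-05).

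Levels of different genes can be set side by side only per length, and here HSPA5 changed place. With DMSO the most abundant of the 49 genes by FPKM was PPIB (715 ± 46.5 FPKM, mean ± SD, n = 3), before HSP90B1 (530 ± 68.1 FPKM), CALR (449 ± 12.6 FPKM), P4HB (353 ± 31.6 FPKM) and HSPA5 (346 ± 58.2 FPKM). P4HB and HSPA5 differed by less than their spread. With MPM-1 the order was HSPA5 (1560 ± 436 FPKM), PPIB (945 ± 13.9 FPKM), HSP90B1 (689 ± 68.3 FPKM), P4HB (454 ± 26.7 FPKM) and CALR (444 ± 60.2 FPKM), with P4HB and CALR within their spread. HSPA5 alone made up 8.06, 6.79 and 6.82% of the summed FPKM of the 49 genes in the DMSO libraries and 24.4, 16.8 and 19.8% in the MPM-1 libraries. The 49 genes together took 0.864, 0.791 and 0.766% of all FPKM with DMSO and 1.48, 1.21 and 1.39% with MPM-1. Without HSPA5, the summed level of the HSP70 cycle was 1070, 893 and 909 FPKM with DMSO and 1390, 1220 and 1360 FPKM with MPM-1, so these groups did not overlap either. With DMSO the isomerases had the largest summed level of the role groups, 2130, 1980 and 1960 FPKM. The whole HSP70 cycle group, HSP90B1 included, had 1480, 1210 and 1220 FPKM. With MPM-1 the HSP70 cycle group was above the isomerases in each library, with 3410, 2360 and 2880 FPKM against 2450, 2270 and 2440 FPKM.

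To compare close relatives without any scaling between libraries, the ratio of their counts was taken within each library for 11 pairs. A two-sided exact permutation test of 3 against 3 libraries cannot give a p below 0.10, and the adjusted p of the 9 pairs that did not overlap was 0.122, so none passed. Ratios of other gene pairs were not taken, and 64.3% of all single genes did not overlap between treatments. Whether a lack of overlap is particular to these pairs was therefore not tested. HSPA5 over HSP90B1 was 0.929, 0.866 and 0.876 with DMSO and 3.70, 2.56 and 2.93 with MPM-1, a difference of 1.77 on the log2 scale. CALR over CANX went the other way, from 1.54, 1.51 and 1.53 to 0.875, 0.845 and 0.809 (difference -0.86). These are ratios of raw counts, which depend on the lengths of the genes, and per length CALR stayed above CANX in every library, with 511, 393 and 429 FPKM against 261, 208 and 238 FPKM with MPM-1. DNAJB9 over DNAJC10 was 0.297, 0.240 and 0.223 with DMSO and 0.511, 0.454 and 0.536 with MPM-1.

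Ratios within gene families were read in the same way. EDEM1 over EDEM2 was 2.61, 3.28 and 2.60 with DMSO and 5.78, 4.55 and 5.30 with MPM-1, and EDEM1 over EDEM3 was 1.91, 2.27 and 2.21 against 4.69, 3.21 and 4.07. ATF6 over ATF6B was 3.05, 2.48 and 2.23 with DMSO and 3.53, 5.23 and 4.27 with MPM-1. DERL1 over DERL2 was 2.20, 1.69 and 1.5 against 1.18, 1.09 and 1.20, and SEC62 over SEC63 was 1.44, 1.34 and 1.37 against 0.918, 1.00 and 0.995. These ratios did not overlap between treatments, nor did ERO1A over ERO1B, the pair of ER oxidases, whose difference was only 0.18. PDIA4 over PDIA6 (exact permutation p = 0.8) and MBTPS1 over MBTPS2 (exact permutation p = 0.7) overlapped, with log2 differences of -0.03 and 0.08.

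**Figure D3:**
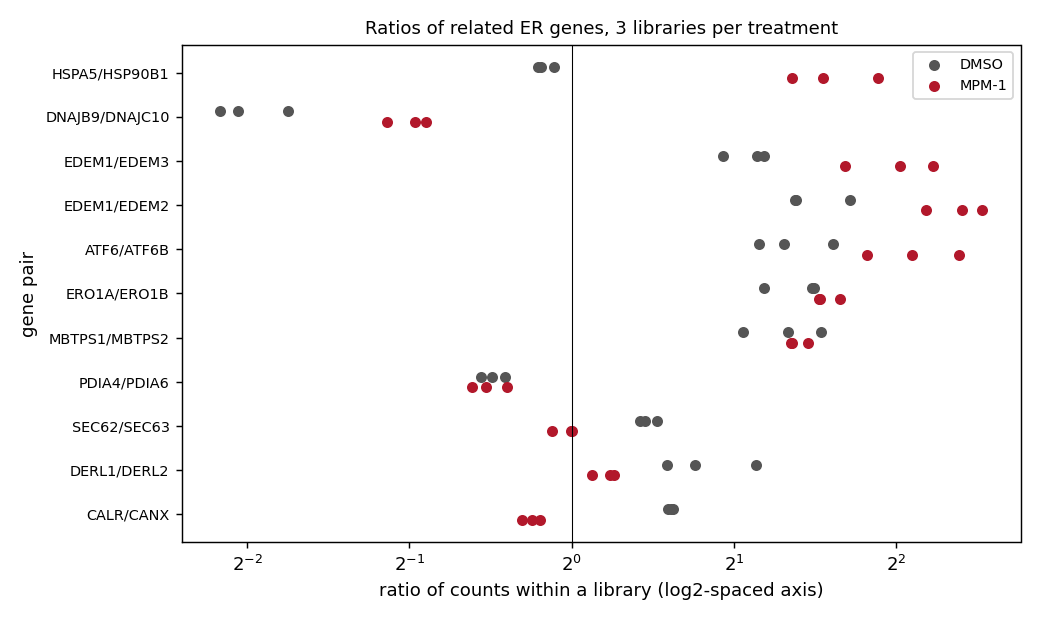
Ratio of the counts of 2 related genes within each library (horizontal axis, log2-spaced), with 1 point per library, DMSO in grey and MPM-1 in red, and a line at equal counts. HSPA5 over HSP90B1 lies below 1 in all DMSO libraries and between 2.56 and 3.70 with MPM-1, CALR over CANX is lower in every MPM-1 library than in any DMSO library, and PDIA4 over PDIA6 and MBTPS1 over MBTPS2 overlap.

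Other genes of the secretory pathway were read from 5 further lists. Of 9 genes listed as the PERK arm, the branch that slows translation and acts through ATF4, 8 rose, and the median log2 fold change was 1.23. Called were 6 of the 9 (66.7%, against 5.58% of all genes called higher). The list is named for known roles. Counts per gene hold no measure of PERK activity, and whether PERK acted on these genes was not tested. EIF2AK3, which encodes PERK itself, did not pass (26.4, 23.5 and 21.3 CPM with DMSO against 26.6, 25.0 and 30.6 CPM with MPM-1; log2 fold change 0.21, adjusted p = 0.158), in contrast to the fold changes of ERN1 and ATF6 among the other sensors, although the differences between sensors were not tested. ATF4, the transcription factor of this arm, rose by 1.04 (adjusted p = 1.31e-05). DDIT3, or CHOP, the factor tied to cell death, had 44.5, 35.1 and 41.6 CPM with DMSO and 225, 398 and 333 CPM with MPM-1 (2.98, adjusted p = 3.06e-06). PPP1R15A, or GADD34, which restores translation, rose by 2.50 (adjusted p = 8.46e-06), the pseudokinase gene TRIB3 by 1.99 (adjusted p = 6.50e-07) and asparagine synthetase ASNS by 2.27 (adjusted p = 4.07e-07). CHAC1, which degrades glutathione, rose by 1.23 (adjusted p = 0.000692), SESN2, a stress-induced inhibitor of mTORC1 signalling, by 0.89 (adjusted p = 2.33e-05) and the oxidase ERO1A by 0.53 (adjusted p = 0.000581). For DDIT3, TRIB3 and CHAC1 the order within MPM-1 was the reverse of that of HSPA5, with replicate 2 highest and replicate 1 lowest. ATF4, PPP1R15A, SESN2 and ERO1A had the order of HSPA5.

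The remaining lists had smaller medians. Of 18 genes of the oligosaccharyltransferase and of N-glycan trimming, 14 rose and 4 did not pass, with a median of 0.57. The called genes made 11.1% of the list, against 5.58% of all genes called higher. They were UGGT2, the relative of UGGT1 (1.16, adjusted p = 4.79e-06), and NGLY1, which strips glycans from ERAD substrates (1.06, adjusted p = 6.74e-06). Of 19 genes of signal recognition and the signal peptidase, 12 rose, 2 fell and 5 did not pass, with a median of 0.47. SEC11C, a catalytic subunit of the signal peptidase, was called (1.14, adjusted p = 2.96e-05), which makes 5.26% of the list, near the 5.58% of all genes called higher. The 2 that fell were SRP9 (-0.36, adjusted p = 0.00132) and SPCS1 (-0.19, adjusted p = 0.0379), named after their values were seen. Of 20 genes of ERAD extraction and ubiquitination, 13 rose, 2 fell and 5 did not pass, with a median of 0.39. Here the ubiquitin-conjugating enzyme UBE2J1 (1.08, adjusted p = 8.74e-06) and SELENOS, a membrane anchor of the extraction ATPase (1.39, adjusted p = 6.43e-06), were called higher (10% of the list, against 5.58% of all genes higher and 14.3% in either direction), while VCP, that ATPase, fell by 0.30 (adjusted p = 0.0147) and UBE2J2 by 0.34 (adjusted p = 0.00451); both were named after their values were seen. Of 6 receptors for the autophagy of ER, 4 rose and 2 did not pass, with a median of 0.56. Of this list 33.3% were called, against 5.58% of all genes called higher. The called genes were CCPG1 (2.27, adjusted p = 6.62e-08) and CALCOCO1 (1.38, adjusted p = 2.16e-05). CCPG1 had 50.7, 52.8 and 51.4 CPM in DMSO and 247, 250 and 250 CPM in MPM-1.

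**Figure D4:**
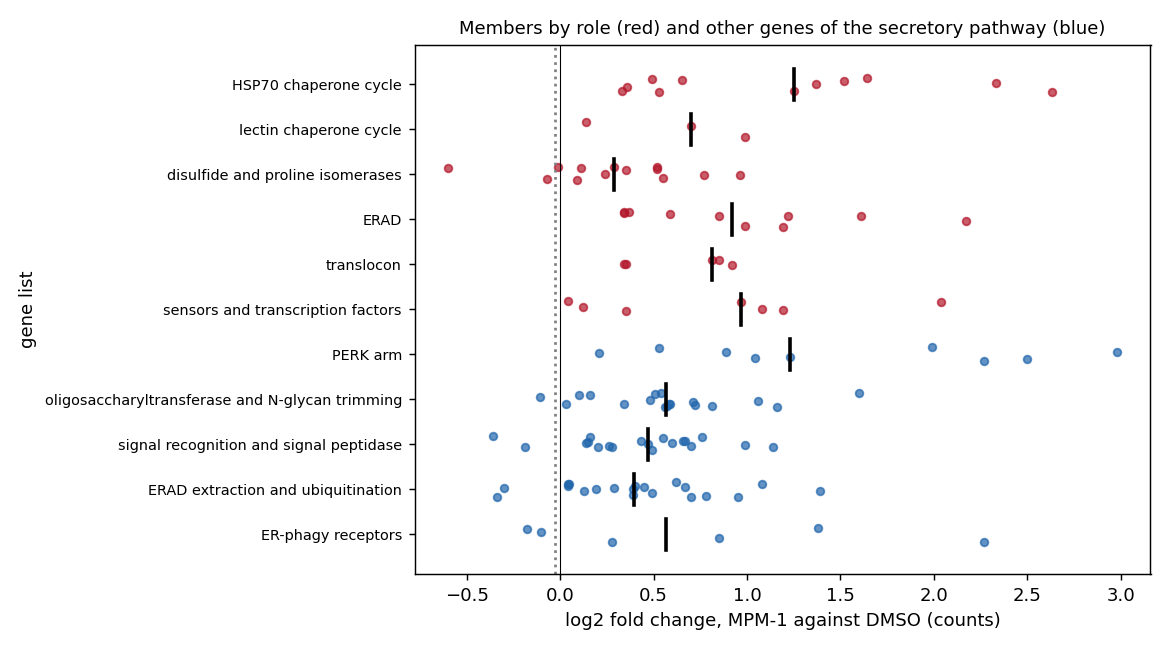
Log2 fold change (horizontal axis, MPM-1 against DMSO, scaled counts) of each gene in the 6 role groups (red) and in the 5 further lists of the secretory pathway (blue), with a black bar at the median of each list and a dotted line at the median of all genes (-0.03). The medians run from 0.29 for the disulfide and proline isomerases to 1.25 for the HSP70 cycle, with 1.23 for the list named PERK arm.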

How the data were processed

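RNA of SW480 cells was sequenced as 3 DMSO and 3 MPM-1 libraries. The deposited table gave whole-number counts per gene and FPKM values per library, which the authors made from aligned reads; their processing notes list HISAT2, DESeq2 and the mouse build mm10 with no role, although the table holds human Ensembl identifiers, so the build used is not settled. The counting tool, its use of strand, the annotation and any filter are not given in the sources used here. The columns that hold the authors' own log2 fold changes and their p-value and FDR were deposited too and were not used. Every column of per-sample values was mapped to a library by its name, and 0 were left unused.

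Counts were tested with the quasi-likelihood test of edgeR 4.0.16 in R 4.3.3, with TMM scaling, no filter, no covariate and Benjamini-Hochberg adjustment over all 12982 genes, and the code was tested on simulated data. Each gene had at least 115 counts over the 6 libraries. CPM values are counts scaled to the library total and by TMM. Alternatives were DESeq2 1.42.0, other scalings, a filter, limma 3.58.1 on log2 FPKM, a replicate block, and each library left out in turn. The members and lists were chosen with earlier results of these data known. Every member was named in its role group, with values per library for the called genes, the largest rise or fall, the most abundant gene by FPKM and the main sensors. From other lists the called genes, the genes that fell and the whole PERK arm list were named. Genome positions are from GENCODE 29 (GRCh38) by Ensembl identifier, and promoters from RefSeq (GRCh38.p14). Counts of pairs were compared by a two-sided exact permutation test with Benjamini-Hochberg adjustment over 11 pairs, and DERL3 over DERL2 was not computed. No 2 libraries of a treatment agreed within sampling noise. Intervals and adjusted p-values rest on 3 libraries a treatment.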

Additional observations from a re-analysis of the deposited data

How the results depend on the processing

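Of the 13 called genes, 11 stayed called in all 14 alternatives; OS9 was called in 13 of them and ATF6 in 10. Of the 40 genes that rose, 30 passed in all 14. Over 686 values of single genes under an alternative, 589 kept their direction and side of the threshold, 60 no longer passed, 9 newly passed and 28 changed sign, and the cause was not tested. With a threshold of 1.5-fold in place of the larger one, 25 genes were called higher and 1 lower. The share of all genes was not counted at this threshold, so how much of the larger count comes from the looser rule was not tested. Leaving out 1 library gave 14 to 17 genes called higher and 0 lower. Among all 12982 genes these fits called 674 to 791 higher and 935 to 1181 lower. Past the adjusted p they had 34 to 42 of the 49 genes as higher and 1 as lower, which was not counted over all genes. With counts scaled by the library total alone, 2 genes passed as lower, and the group medians were 1.1 for the HSP70 cycle, 0.55 for the lectin cycle, 0.14 for the isomerases, 0.77 for ERAD, 0.66 for the translocon and 0.82 for the sensors. In limma on log2(FPKM + 1), 2 genes passed as lower and the medians were 1.04, 0.45, 0.13, 0.75 and 0.66 for the first 5 of these groups. In limma on log2(FPKM + 0.1), with and without a filter at a mean of 1 FPKM, 2 genes passed as lower and the medians were 1.09, 0.54, 0.13, 0.80 and 0.66. There the median of all genes was -0.13 to -0.17, and 27.1 to 32.9% of calls were higher. With 1 library left out, the isomerase median ran from 0.23 to 0.39 and the translocon median from 0.74 to 0.88.

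The genes that changed sign were CALR, PDIA4, PDIA5, PDIA6, MBTPS1 and MBTPS2, and none passed there (lowest adjusted p = 0.297). Scaled by the library total, CALR was at -0.01, PDIA4 at -0.06, PDIA6 at -0.04, MBTPS1 at -0.03 and MBTPS2 at -0.11. In limma, CALR was at -0.03, PDIA4 at -0.08, PDIA6 at -0.05 and MBTPS1 at -0.02, and MBTPS2 at -0.09 (pseudocount 1) or -0.10 (pseudocount 0.1). PDIA5 was at 0.01 with DESeq2 or its size factors. With 1 library left out, values ran from 0.00 to 0.24 for PDIA4, -0.09 to 0.13 for PDIA5 and -0.05 to 0.09 for MBTPS2. The ratios of PDIA4 over PDIA6 ran from -0.09 to 0.02 and of MBTPS1 over MBTPS2 from -0.05 to 0.19. With a replicate block, 13 genes were called higher, where 712 of all 12982 genes were called higher and 1120 lower. There 39 genes passed as higher, FKBP2 was lost and PDIA5 was at 0.00. For each gene, the mean of the treatment was taken from the log CPM of each library. Over all genes, these deviations correlated at 0.02, 0.11 and -0.07 between same-numbered libraries of the treatments. Between differently numbered ones they ran from -0.13 to 0.11, so these values show no sign of pairing by number, which was not tested. With 3 libraries a treatment, the exact test of a ratio cannot pass 0.05.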

Other observations

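The FPKM and the counts of the same libraries gave slightly different changes. The log2 ratio of mean FPKM minus that of mean CPM had a median of -0.15 over the 49 genes, and 45 of them lay within 0.1 of it. CPM values were scaled by TMM, with factors of 1.03, 1.07 and 1.06 for DMSO and 0.93, 0.97 and 0.95 for MPM-1. The FPKM values, also those used in limma, do not carry this scaling, so a shared offset of this kind is part of how the 2 measures are made. The 4 outside were DNAJC10 (-0.32), XBP1 (0.04), ERN1 (0.12) and CREB3L2 (0.44), named after their values were seen. CREB3L2 had 5.02, 5.01 and 6.00 FPKM with DMSO and 16.2, 8.77 and 17.7 FPKM with MPM-1, a log2 ratio of 1.41 against 0.97 from CPM. In each library 1 FPKM of CREB3L2 stood for 224, 293 and 210 counts with DMSO and for 133, 197 and 130 counts with MPM-1. For XBP1 the same quantity was 58.4, 74.2 and 70.1 counts with DMSO and 54.6, 53.7 and 53.3 counts with MPM-1, and for ERN1 it was 172, 235 and 209 against 161, 150 and 153. In each of these 3 genes the MPM-1 libraries lay below the DMSO libraries in counts per FPKM, a quantity that also scales with the total count of a library. DNAJC10 had 6.45, 5.49 and 10.9 FPKM with DMSO, and 19.2, 19.4 and 18 FPKM with MPM-1, so its DMSO libraries spread more in FPKM than in CPM.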
